A study of Rattus norvegicus with 4 samples.

Results

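The genes that rat liver uses to build, load and display major histocompatibility complex (MHC) molecules were examined in 4 RNA-seq libraries. Members were all genes whose symbol starts with RT1-, the name of the rat MHC, together with B2m, Tap1, Tap2, Tapbp, Psmb8, Psmb9, Psmb10, Cd74, Ciita, Nlrc5, Erap1 and Ctss. Of the 16999 gene symbols measured, 60 were members, and 41 of these had a TPM of at least 1 on average, as did 9201 genes in all. TPM, the transcript number scaled to library size, is a level corrected for gene length, so it can be set side by side between genes. Nlrc5 was not analysed here. The 41 described genes comprised 25 RT1 class I genes, 6 RT1 class II genes, 5 genes of class I loading, 3 immunoproteasome subunits and 2 genes that serve class II. The other 19 members stayed under a mean TPM of 1.

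Rats with a wild type genotype inhaled either sevoflurane (4.5%) or desflurane (6%), a pair of volatile general anesthetics. Control rats were decapitated once consciousness was lost (0 h), and the others after 6 h of anesthesia. The 4 groups, each agent at 0 h and at 6 h, held 1 library, so values come without replicate error and every comparison sets single livers against each other. Livers of control and anesthetized rats were taken 6 h apart, so the duration of anesthesia and the hour of harvest cannot be told apart. Sources used here do not give strain, age or sex. In what follows, a gene was called higher or lower in one library than in another when the higher TPM exceeded 2 and was more than 2 times the lower, with no p-value. Log2 changes are differences of log2(TPM + 1), a scale that shrinks the changes of low genes.

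MHC class I molecules are found on nearly all nucleated cells and show peptides from the cytosol to CD8+ T cells. Proteasomes cut these peptides, the transporter formed by TAP1 and TAP2 carries them into the endoplasmic reticulum, tapasin and ERAP1 help to fit and trim them, and beta-2-microglobulin completes the molecule. Interferon gamma is known to exchange the catalytic proteasome subunits for those of the immunoproteasome and to raise TAP1, in part through IRF1. MHC class II molecules are carried mainly by macrophages, dendritic cells and B cells, show peptides from endosomes to CD4+ T cells, and depend on the invariant chain CD74, the protease cathepsin S and the exchange factor DM. In liver, the resident macrophages are the Kupffer cells, and hepatocytes express class I but normally little class II.

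Of the RT1 genes with a deposited row, 48 of 49 lay on chromosome 20 of the build rn6, and RT1-CE13 lay on an unplaced contig of the same chromosome. Members on chromosome 20 spanned 5.32 Mb, from position 154657 to position 5476007. Psmb9 (chr20:3973424-3978845, minus strand) and Tap1 (chr20:3979302-3989669, plus strand) faced away from each other with 456 bases between them. Promoter windows of RefSeq for the rat assembly GRCr8 (250 bases before to 50 after the annotated start) were found for 50 of the 60 members and for 35 of the 41 described ones. There too the starts of Psmb9 and Tap1 were 456 bases apart on opposite strands.

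The upstream parts of 8 of these windows are printed below with matches to fixed letters marked. Psmb9, Tap1 and Psmb10 stand for the immunoproteasome and peptide transport. B2m and the RT1-A genes stand for class I, and RT1-Da and RT1-Ba for class II. Psmb8, which changed more than Psmb10 with both agents, is not printed. Each stretch is written 5′ to 3′ on the gene's own strand and ends at the base before the annotated start. Capitals mark matches, on either strand, to the core of an interferon-stimulated response element (GAAANNGAA), an inverted CCAAT box (ATTGG), a kappa B site (GGGANTTCC) or a cyclic AMP response element (TGACGTCA). Psmb9 and Tap1 are taken from the shared stretch between their starts, chr20:4668840-4668999 (plus) and chr20:4668544-4668703 (minus), Psmb10 from chr19:50743293-50743402 (minus), and B2m from chr3:129549170-129549329 (plus). RT1-A1 is chr20:4907059-4907208, RT1-A2 is chr20:4872671-4872870, RT1-Da is chr20:4515305-4515414 and RT1-Ba is chr20:4576907-4577056, all on the plus strand of GRCr8.
Psmb9: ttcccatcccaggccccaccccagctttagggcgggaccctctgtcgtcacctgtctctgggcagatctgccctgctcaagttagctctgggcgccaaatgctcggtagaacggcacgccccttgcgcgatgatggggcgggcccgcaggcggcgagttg
Tap1: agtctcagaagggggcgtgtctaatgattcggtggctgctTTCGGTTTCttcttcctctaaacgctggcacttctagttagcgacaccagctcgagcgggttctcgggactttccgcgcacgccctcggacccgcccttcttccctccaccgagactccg
Psmb10: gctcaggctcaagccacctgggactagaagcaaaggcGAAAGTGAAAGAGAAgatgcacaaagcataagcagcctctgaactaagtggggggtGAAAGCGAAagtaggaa
B2m: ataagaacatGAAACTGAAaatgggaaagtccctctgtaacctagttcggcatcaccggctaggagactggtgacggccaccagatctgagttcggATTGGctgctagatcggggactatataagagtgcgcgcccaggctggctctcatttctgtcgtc
RT1-A1: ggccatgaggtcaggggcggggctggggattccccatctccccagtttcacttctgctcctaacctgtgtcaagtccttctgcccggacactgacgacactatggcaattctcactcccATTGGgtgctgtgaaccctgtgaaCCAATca
RT1-A2: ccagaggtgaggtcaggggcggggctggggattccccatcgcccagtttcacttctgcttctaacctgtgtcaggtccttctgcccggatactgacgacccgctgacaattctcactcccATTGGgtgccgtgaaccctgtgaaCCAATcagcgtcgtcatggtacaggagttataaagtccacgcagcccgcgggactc
RT1-Da: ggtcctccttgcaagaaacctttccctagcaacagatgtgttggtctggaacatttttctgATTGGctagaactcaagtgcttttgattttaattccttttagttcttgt
RT1-Ba: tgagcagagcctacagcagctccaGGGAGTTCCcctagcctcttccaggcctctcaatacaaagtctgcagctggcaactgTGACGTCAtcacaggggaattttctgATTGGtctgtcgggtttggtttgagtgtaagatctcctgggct
A match to the interferon-stimulated core, which is bound by interferon regulatory factors, was found in the windows of 4 of 4 class I loading genes with a window (B2m, Tap1, Tap2 and Tapbp), 2 of 3 immunoproteasome subunits (Psmb8 and Psmb10), 3 of 21 described class I genes (RT1-N3, RT1-S2 and RT1-S3), Ctss, and 0 of 5 described class II genes. It occurred in 9.71% of all 33469 rat promoter windows of the same length. In Tap1 the match lay at positions -120 to -112, read on the opposite strand, and in B2m at -150 to -142. The Tap1 match is within the 456 bases shared with Psmb9, but beyond the reach of the Psmb9 window. Psmb10 held 3 matches, 2 of which overlap. The inverted CCAAT box, the core of the element that binds the factor NF-Y, was present in 5 of 5 described class II windows, in Cd74 and Ctss, in 15 of 21 class I windows, in B2m, and in Psmb8 and Psmb9, against 37.5% of all windows. In RT1-Da it lay at -49 to -45 and in RT1-Ba at -43 to -39. RT1-Ba also held the cyclic AMP response element, a palindrome, which was in 1.83% of all windows, and the kappa B letters, which were in 1.64%. A gamma-activated site (TTCNNNGAA, also a palindrome) was found in 3 of the 50 member windows, Psmb8 among them, against 8.87% of all windows. The RT1-A1 and RT1-A2 windows shared 166 of 200 bases at their best placement without gaps, with annotated starts shifted by 49 bases. Such copies share sequence by descent and do not count as separate examples. A match is a description of letters and not a site of binding. Only these exact letters were searched, so a window without a match to an element may hold a variant of it. The windows of RT1-A1 and RT1-A2, for instance, matched the inverted CCAAT box but not the interferon-stimulated core.

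The aligned bases behind the libraries were 3.50, 5.38, 5.29 and 5.57 Gb for sevoflurane at 0 h and 6 h and then desflurane at 0 h and 6 h, which is also the order of every run of 4 values below. A TPM of 2 stood for a mean coverage of 4.72 to 7.28 reads per base. The depth is least for sevoflurane 0 h, and without read counts in the tables no counting interval can be given. All 10 hepatocyte markers, which define the labelled tissue, were measured, and albumin had a TPM of 53282 to 58867. As deposited, the median log2 change of all genes was 0.05 for sevoflurane 6 h against 0 h, -0.10 for desflurane 6 h against 0 h and 0.11 for desflurane 0 h against sevoflurane 0 h, and member changes are to be read against these medians.

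Class I RNA exceeded class II RNA in all 4 livers. The 39 class I genes summed to a TPM of 497, 484, 536 and 479, and the 10 class II genes to 182, 142, 166 and 245. The class I sum thus stayed within a narrow band, whereas the class II sum was lowest in sevoflurane 6 h and highest in desflurane 6 h. Class I exceeded class II 2.73, 3.42, 3.23 and 1.96 times. B2m, the light chain that every class I molecule needs, had a TPM of 849.5, 681, 807 and 800.0, which was 1.71, 1.41, 1.51 and 1.67 times the class I sum. On the log2 scale the class I sum differed by -0.04 with sevoflurane and -0.16 with desflurane, and the class II sum by -0.36 and 0.56. The controls, which inhaled their agent only until loss of consciousness, differed by 0.11 in the class I sum and -0.13 in the class II sum.

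**Figure D1:**
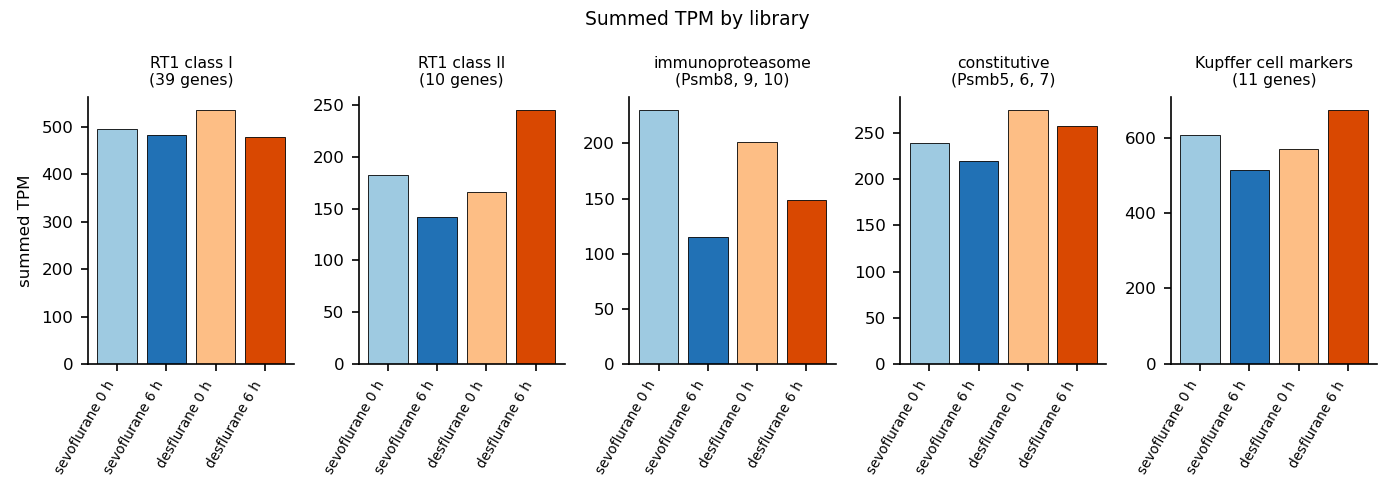
Summed TPM (y axis, starting at 0, own scale in each panel) of 5 gene groups in the 4 libraries, 1 bar for each library and no error bars because each group holds 1 library. Class I stays between 479 and 536, class II and the Kupffer cell markers are lowest in sevoflurane 6 h and highest in desflurane 6 h, and the immunoproteasome sum is lower in both 6 h libraries (115 and 149) than in both controls (230.2 and 201).

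Class II genes and their helpers were lower after 6 h of sevoflurane and higher after 6 h of desflurane, each relative to its own control. This held for 8 of 8 described genes (RT1-Da, RT1-Db1, RT1-Ba, RT1-Bb, RT1-DMa, RT1-DMb, Cd74 and Ctss), against 9.90% of the 9201 genes at or above that level. By more than 0.25 on the log2 scale in each direction it held for 5 of the 8 (RT1-Da, RT1-Db1, RT1-Ba, RT1-DMb and Cd74), against 1.48% of all genes, and for 0 of the 25 class I genes. Over the 8 genes the median log2 change was -0.31 with sevoflurane and 0.55 with desflurane, against 0.05 and -0.10 over all genes. None of the 8 passed the ratio of 2 in either comparison, and the largest ratio was 1.93. The difference between the agents was not tested, since each change rests on 1 pair of livers.

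RT1-Da, the alpha chain of the rat DR-type molecule, was the most abundant class II gene, with a TPM of 85.5, 63.8, 78.0 and 109. Its partner chain RT1-Db1 had a TPM of 32.6, 25.5, 30.1 and 42.6. In both chains sevoflurane 6 h was the lowest library, desflurane 6 h the highest, and the controls lay close together in between. The ratio of RT1-Da to RT1-Db1 was nearly level, at 2.62, 2.51, 2.59 and 2.55. RT1-Da was 1.34-fold lower with sevoflurane and 1.39-fold higher with desflurane, and RT1-Db1 1.28-fold lower and 1.42-fold higher.

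RT1-Ba and RT1-Bb encode the alpha and beta chains of the DQ-type molecule. RT1-Ba had a TPM of 28.5, 20.4, 24.2 and 37.3, a log2 change of -0.46 with sevoflurane and 0.60 with desflurane. RT1-Bb had a TPM of 14.2, 13.2, 17.0 and 26.05, a log2 change of -0.10 and 0.59. Both were again lowest in sevoflurane 6 h and highest in desflurane 6 h, but for RT1-Bb the sevoflurane libraries differed by less than the controls did (0.25 on the log2 scale).

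RT1-DMa and RT1-DMb form DM, the exchange factor that frees the class II groove of the invariant chain remnant. RT1-DMa had a TPM of 6.91, 6.51, 6.86 and 10.9, and only desflurane 6 h stood apart from the other 3. RT1-DMb had a TPM of 13.6, 11.04, 9.22 and 17.8, a log2 change of -0.27 with sevoflurane and 0.88 with desflurane. Here desflurane 0 h was the lowest library, and the controls differed by -0.51. Against the control of the other agent, RT1-DMb was not lower with sevoflurane, while the other 7 genes of the group were. With libraries scaled by the median of gene ratios, RT1-DMb passed the ratio of 2 with desflurane.

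RT1-DMa and RT1-DMb each had 2 rows in rn6, on opposite strands of chromosome 20, whose values were added. The rows of RT1-DMb at chr20:3945601-3952838 and chr20:5227053-5234290 have the same length of 7238 bases. The first had a TPM of 7.83, 3.41, 4.61 and 9.69 and the second 5.73, 7.64, 4.61 and 8.07, so with sevoflurane one copy was lower and the other higher. The sum is therefore the safer value for this gene, and how the authors' software split reads between the copies was not tested.

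Cd74, the invariant chain that guides class II molecules to endosomes, had a TPM of 139, 108, 126 and 178. Relative to the class II sum it was 0.764, 0.760, 0.756 and 0.729, so chaperone and chains kept nearly the same proportion in the 4 livers. Its log2 change was -0.37 with sevoflurane and 0.50 with desflurane. Ctss (cathepsin S), the protease that degrades the invariant chain, had a TPM of 61.9, 54.8, 63.0 and 76.8, with smaller log2 changes of -0.17 and 0.28. Of these 8 genes, 7 had their lowest value in sevoflurane 6 h and their highest in desflurane 6 h, RT1-DMb being the exception, against 4.86% of all genes.

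**Figure D2:**
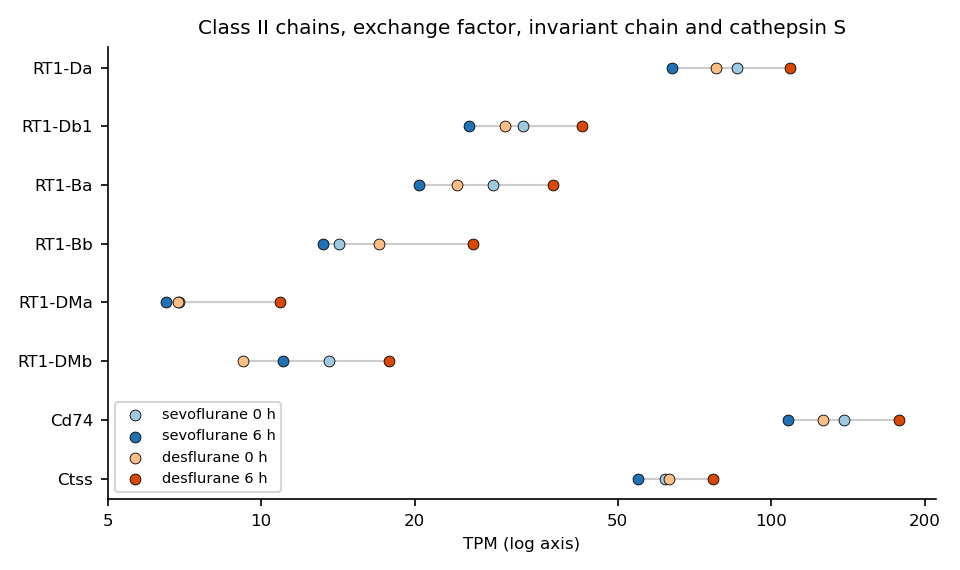
TPM (x axis, log scale) of the 8 described class II genes and helpers (rows), 1 point for each library, with a grey line from the lowest to the highest. In 7 of the 8 rows sevoflurane 6 h is the leftmost point and desflurane 6 h is the rightmost in all 8, whereas in the row of RT1-DMb desflurane 0 h is leftmost.

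The summed markers of Kupffer cells showed the same order of libraries as the class II sum. The 11 measured genes summed to a TPM of 608, 513, 569.9 and 673. Of the 11, 10 lay below their control with sevoflurane and above it with desflurane, Cd163 being the exception, against 9.90% of all genes. Sevoflurane 6 h was the lowest and desflurane 6 h the highest library for 6 of the 11, against 4.86% of all genes. Cd68, Vsig4 and Adgre1, 3 of the 11, lay below their control with sevoflurane and above it with desflurane by more than 0.25 each. This held for 1.48% of all genes. Cd68 had a TPM of 6.18, 3.93, 5.91 and 7.28, and Csf1r 18.6, 16.8, 16.3 and 25.97, with its lowest value in desflurane 0 h. The class II sum divided by the Kupffer marker sum was 0.299, 0.276, 0.291 and 0.363, so the ratio of class II to these markers was also highest in desflurane 6 h. In whole liver, fewer cells of a type and less RNA in each cell cannot be told apart, and the part of Kupffer cell number in the class II values was not tested. Markers of other class II bearing cells were low. The 7 measured dendritic cell markers summed to between 3.69 and 4.30, and 1 of them averaged a TPM of at least 1. They did not share an order of libraries. Cd209a was listed at 0 in both 6 h libraries, whereas Flt3 (0.416, 0.281, 0.533 and 1.01) was lowest in sevoflurane 6 h and highest in desflurane 6 h. The 7 measured B cell markers summed to between 2.74 and 3.66, and 1 of them averaged a TPM of at least 1. These markers too differed in order, and 3 were listed at 0 in at least 1 library. Ms4a1 was listed at 0 in both 6 h libraries, whereas Blk (0.800, 0.667, 0.648 and 0.903) was highest in desflurane 6 h. The 6 measured sinusoidal endothelial markers summed to 123, 121, 122 and 143. Of these, 3 lay below their control with sevoflurane and above it with desflurane, against 9.90% of all genes. None did so by more than 0.25 in each direction.

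The immunoproteasome subunits and the peptide transporter gene Tap1 were lower after 6 h with both agents. Psmb9 and Tap1 were the 2 members called lower with sevoflurane, of 38 members above the TPM minimum, against 3.71% of all genes. No member was called lower or higher with desflurane, where 5.55% and 4.10% of all genes were called. Psmb8, Psmb9 and Psmb10 were each lower with both agents by more than 0.25 on the log2 scale, as were 11.8% of all genes. In all 3, both 6 h libraries lay below both controls, as they did in 27.9% of all genes.

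Psmb9, the inducible subunit that takes the place of Psmb6, had a TPM of 78.8, 28.1, 58.9 and 37.6. It was 2.81-fold lower with sevoflurane and 1.57-fold lower with desflurane, and the controls differed by a log2 value of -0.41. Psmb8, which takes the place of Psmb5, had a TPM of 113, 61.5, 102 and 79.4, a log2 change of -0.87 and -0.36. Psmb10, which takes the place of Psmb7, had a TPM of 38.5, 25.1, 40.1 and 32.2, a log2 change of -0.60 and -0.31. The order of libraries was thus alike in the 3 subunits, with sevoflurane 6 h lowest and desflurane 6 h next. Tap1, one subunit of the peptide transporter and the neighbour of Psmb9, had a TPM of 25.3, 12.4, 29.5 and 16.1. It was 2.04-fold lower with sevoflurane, just past the ratio of 2, and 1.83-fold lower with desflurane, just short of it.

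The constitutive subunits that share these places in the proteasome differed less between libraries. Psmb5, Psmb6 and Psmb7 summed to a TPM of 239.5, 219.9, 275 and 258, while the immunoproteasome subunits summed to 230.2, 115, 201 and 149. The ratio of these sums within a library was 0.961, 0.522, 0.732 and 0.579. For the pair Psmb9 and Psmb6 it was 1.03, 0.427, 0.627 and 0.4998, for Psmb8 and Psmb5 it was 1.95, 1.09, 1.53 and 1.25, and for Psmb10 and Psmb7 it was 0.367, 0.257, 0.351 and 0.271. In every pair both 6 h libraries had a lower ratio than both controls. Such a ratio within a library does not depend on how the libraries were scaled. Likewise the ratio of Tap1 to its partner Tap2 was 1.65, 0.956, 1.94 and 1.13.

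**Figure D3:**
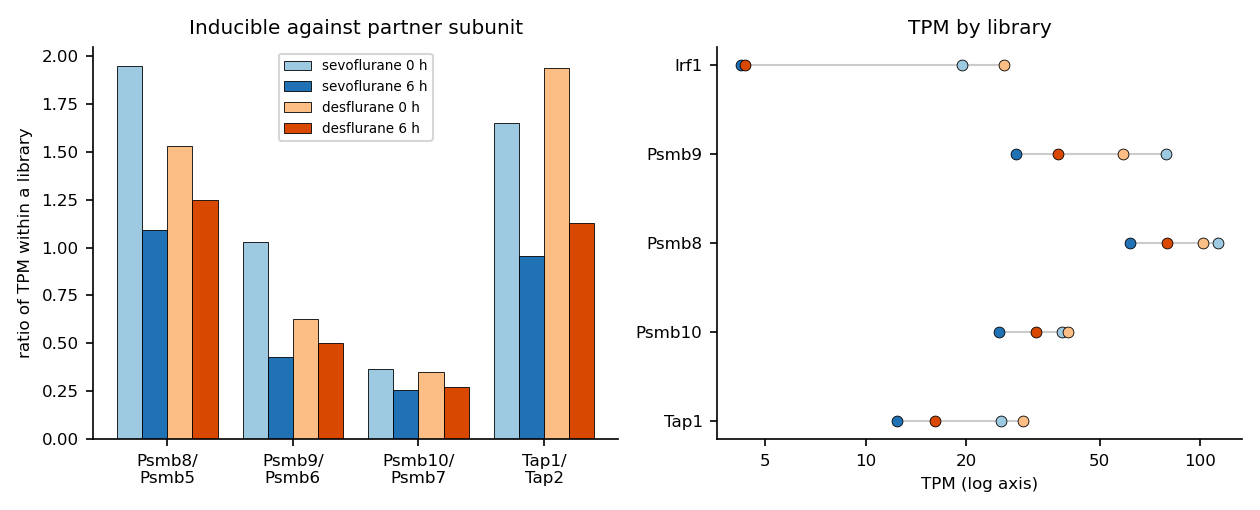
Left, ratio of the TPM of an inducible subunit to that of its partner within each library (y axis from 0, 1 bar for each library). Right, TPM (x axis, log scale) of Irf1, the 3 immunoproteasome subunits and Tap1 in the 4 libraries, where both 6 h points lie to the left of both 0 h points in all 5 rows.

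The change shared by the agents was tested with limma over all 4 libraries, with the agent as a block, so that the agents stood in for replicates and 1 residual degree of freedom was left. Of 8024 genes tested, 4.69% were higher and 3.94% lower at 6 h with an adjusted p under 0.05. Of the 38 members tested, 3 fell and 0 rose (6 lower and 0 higher at an unadjusted p under 0.05). Psmb9 fell by 1.05 ± 0.19 (SE) on the log2 scale (limma, adjusted p = 0.0040). Tap1 fell by 0.90 ± 0.18 (limma, adjusted p = 0.0063) and Psmb8 by 0.61 ± 0.15 (limma, adjusted p = 0.027). Psmb10 had a log2 change of -0.45 ± 0.16 and did not pass (limma, adjusted p = 0.13). With 1 library left out the block could not be fitted, and with all 4 libraries and no block Psmb9 and Tap1 passed and Psmb8 did not. In the fits without the block, none of the 3 passed without sevoflurane 0 h or without sevoflurane 6 h, Psmb9 alone did without desflurane 0 h, and all 3 did without desflurane 6 h. No class II gene, nor Cd74 or Ctss, passed this test, in which opposite changes with the agents cancel. For RT1-Da the log2 change was 0.03 ± 0.19 (limma, adjusted p = 0.97).

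Among regulators of these genes, Irf1, an interferon-induced activator of the class I, Tap1 and Psmb9 promoters, had a TPM of 19.4, 4.24, 25.97 and 4.36. It was called lower with both agents and fell by 2.15 ± 0.21 on the log2 scale (limma, adjusted p = 3.3e-05). Its 6 h libraries lay below both controls. Irf2, a relative of Irf1, had a TPM of 4.97, 7.76, 3.83 and 4.73 and did not pass (limma, adjusted p = 0.39). Ifng, the gene of interferon gamma, was listed at 0 in all 4 libraries. The receptor gene Ifngr1 had a TPM of 10.9, 17.4, 12.1 and 19.6, higher at 6 h with each agent. The other receptor gene, Ifngr2, had a TPM of 5.67, 3.97, 6.32 and 5.11, lower at 6 h with each agent. T and NK cells, a known source of interferon gamma, had a summed marker TPM of 24.0, 16.3, 18.0 and 17.6 over 12 genes. Of these, Cd3e, Cd8b and Ncr1 were listed at 0 in at least 1 library. Cd4 gave the largest part of the sum (7.35, 7.39, 5.71 and 7.99). Its log2 change was 0.01 with sevoflurane and 0.42 with desflurane, so the sum does not stand for the other markers. Of the 6 markers averaging a TPM of at least 1, 5 lay below their control with sevoflurane and 4 with desflurane, against 44.5% and 61.7% of all genes. Called lower were 3 (Cd8a, Nkg7 and Prf1) after 6 h of sevoflurane and 1 (Cd8a) after 6 h of desflurane, where 3.71% and 5.55% of all genes were. Cd8a, Nkg7 and Prf1 had a TPM of 2.24, 2.87 and 2.36 in sevoflurane 0 h, just past the minimum of 2. Their lowest mean coverage was 2.19, 3.25 and 3.18 reads per base, so the precision is low. Nkg7 and Prf1 also differed between the controls, where they were called lower in desflurane 0 h, 3.04-fold and 2.27-fold, so that both were highest in sevoflurane 0 h. Their part in the values of the immunoproteasome genes was not tested.

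Ciita, the master activator of class II genes, was under the level described here, with a TPM of 0.795, 0.425, 1.13 and 0.619. It was lower at 6 h with each agent, at a mean coverage of 1.46 to 3.89 reads per base, so the precision is low. Rfx5, Rfxap and Rfxank form the complex that binds class II promoters beside NF-Y. Rfx5 had a TPM of 0.955, 1.61, 1.904 and 1.14, Rfxap 5.47, 5.85, 6.42 and 5.79, and Rfxank 7.09, 3.90, 5.82 and 3.34. The part of Ciita and of this complex in the class II values was not tested. Of the NF-Y subunits, Nfya had a TPM of 1.24, 0.912, 1.16 and 0.547 and Nfyb 8.87, 6.34, 10.8 and 6.59, both lower at 6 h with each agent. Nfyc had 14.6, 11.7, 11.9 and 14.6, a log2 change of -0.30 with sevoflurane and 0.27 with desflurane. It was the 1 gene of the 45 in the wider antigen-processing lists that was lower with sevoflurane and higher with desflurane by more than 0.25 each, against 1.48% of all genes, and it was called with neither agent.

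The 45 genes of the wider antigen-processing lists are those averaging at least 1 TPM. Irf1 was called lower with both agents, and Ctsl was the 1 gene called higher with sevoflurane. With desflurane, Creb1 was also called lower and Marchf1 was the 1 gene called higher. With each agent, 1 of the 45 was called higher and 2 lower. Of all genes, 5.04% were called higher and 3.71% lower with sevoflurane, and 4.10% and 5.55% with desflurane. The median log2 change of the 45 was -0.03 with sevoflurane and -0.07 with desflurane, close to that of all genes. Ctsl (cathepsin L), a lysosomal protease, had a TPM of 524, 1055, 688 and 1185 and rose by 0.90 ± 0.11 (limma, adjusted p = 2.8e-04). Marchf1, a ubiquitin ligase known to remove class II molecules from the surface, had a TPM of 0.774, 1.88, 0.466 and 2.003. It was 2.43-fold higher with sevoflurane, under the TPM minimum, and 4.30-fold higher with desflurane, just past it. Its lowest mean coverage was 1.61 reads per base, so the precision is low. Creb1, a factor that binds the cyclic AMP response element, had a TPM of 7.20, 5.38, 8.23 and 3.199. Psme1 and Psme2 form the interferon-inducible proteasome activator PA28, and Psme2 had a TPM of 49.7, 34.1, 49.8 and 46.2. Tapbpl, a relative of tapasin, had a TPM of 18.3, 11.9, 17.0 and 13.6, and Calr (calreticulin), a chaperone of class I loading, 652, 506, 609 and 539. Psme2, Tapbpl and Calr were lower in both 6 h libraries than in both controls, and none passed the limma test (adjusted p of 0.31, 0.22 and 0.22).

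**Figure D4:**
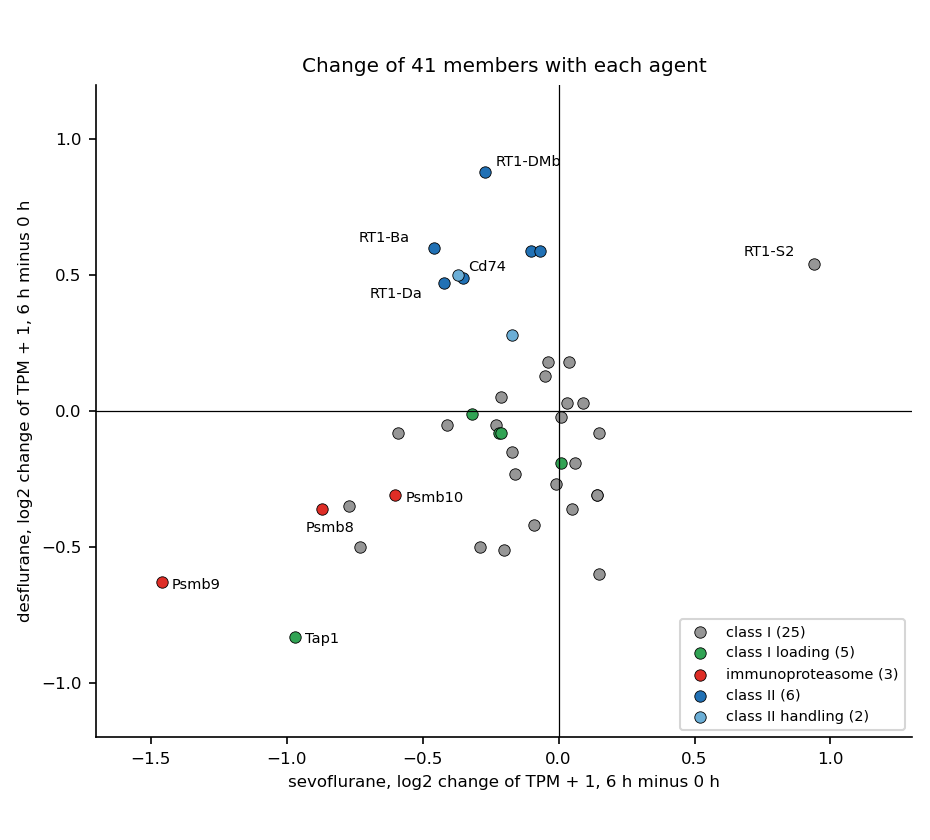
Log2 change of TPM + 1 from 0 h to 6 h with sevoflurane (x axis) and with desflurane (y axis) for the 41 described genes, 1 point for each gene, coloured by group. The 8 class II genes and helpers lie in the upper left, lower with sevoflurane and higher with desflurane, the 3 immunoproteasome subunits and Tap1 lie in the lower left, and most class I genes lie near the centre.

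The other genes of class I loading differed less between libraries than Tap1 did. B2m was 1.25-fold lower with sevoflurane and 1.01-fold lower with desflurane. Tap2 had a TPM of 15.3, 13.0, 15.2 and 14.3, again as the sum of 2 rows on opposite strands. Tapbp (tapasin), which holds empty class I molecules at the transporter, had a TPM of 35.4, 30.4, 36.8 and 34.8. Erap1, an aminopeptidase that trims peptides to fit the groove, had a TPM of 19.0, 19.1, 19.98 and 17.3. Of the 5 loading genes, 4 were lower with both agents, Erap1 being the exception, and 1, Tap1, by more than 0.25 with each. Of all genes, 34.6% were lower with both agents.

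Among class I genes, RT1-S3 and RT1-CE16 led the list. RT1-S3, a non-classical class I gene, had a TPM of 84.2, 81.8, 75.3 and 85.4 and made up 16.4% of the class I sum over the 4 libraries. RT1-CE16 had a TPM of 69.7, 77.6, 85.6 and 81.2 and made up 15.7%. The order of the leading pair therefore changed between libraries, and their levels were not apart beyond the spread over the 4 livers. RT1-A1 and RT1-A2, of the classical RT1-A region that presents peptides to CD8+ T cells, had a TPM of 58.6, 52.4, 57.6 and 49.1 and of 43.6, 45.5, 49.2 and 43.0. The ranges of this pair overlapped by a narrow margin.

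By subfamily the class I sum was split into 3 RT1-A genes (132, 128, 141 and 121), 14 RT1-CE genes (219, 224, 249 and 212) and 22 others (146, 132, 145 and 146). None of these sums differed by more than 0.23 on the log2 scale with either agent, and the controls differed by 0.19 in the RT1-CE sum. The median log2 change of the 25 described class I genes was -0.04 with sevoflurane and -0.15 with desflurane, so close to the medians of all genes. Of the 25, 11 were lower with both agents, and 9 had both 6 h libraries below both controls, against 34.6% and 27.9% of all genes.

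RT1-S2 was the single member called higher with sevoflurane, against 5.04% of all genes, with a TPM of 1.02, 2.87, 1.04 and 1.95. It was 2.82-fold higher with sevoflurane and 1.88-fold higher with desflurane. Both 6 h libraries thus lay above both controls, as they did for 4 of the 25 class I genes and for 22.8% of all genes. At this level the mean coverage was between 2.40 and 9.82 reads per base, so the precision is low. At the other end, RT1-T24-3 had a TPM of 11.8, 6.49, 10.7 and 8.17 and RT1-CE4 7.85, 4.32, 6.18 and 4.07, a log2 change of -0.77 and -0.73 with sevoflurane and -0.35 and -0.50 with desflurane. RT1-N3 had a TPM of 3.68, 2.10, 3.02 and 2.79. In these 3 genes both 6 h libraries lay below both controls, and RT1-T24-3 did not pass the limma test (adjusted p = 0.16).

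**Figure D5:**
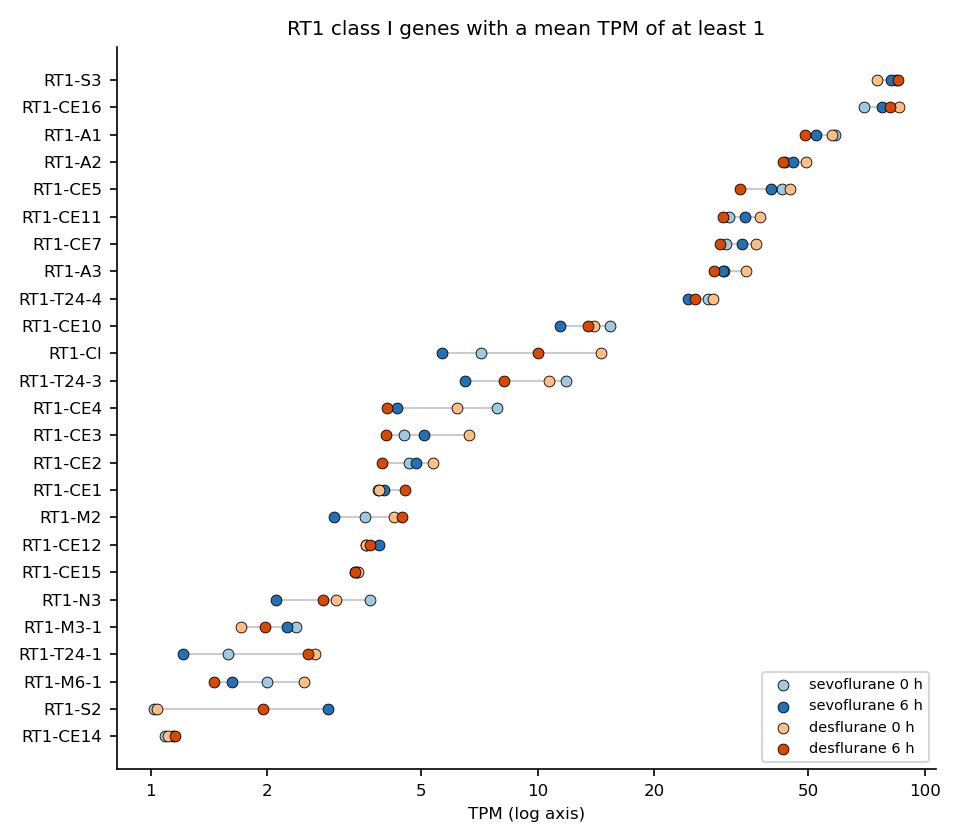
TPM (x axis, log scale) of the 25 described class I genes (rows, in order of their mean), 1 point for each library, with a grey line from the lowest to the highest. Most rows are short, and the points of the 4 libraries change order from row to row, with RT1-S2, RT1-Cl and RT1-T24-1 among the wider rows.

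Some class I genes are near-identical copies, and the rows of many overlap. Of the 25 described class I genes, 13 had a row overlapping that of another member on the same strand. The row of RT1-CE7 lay wholly inside that of RT1-CE11, with a TPM of 30.6, 33.7, 36.7 and 29.5 against 31.2, 34.3, 37.5 and 30.1, so the pair is best read as 1 value. RT1-CE16 lay wholly inside RT1-A3. The rows of RT1-CE1, RT1-CE12 and RT1-CE14 spanned 153594, 153392 and 304424 bases and took in other copies. When overlapping rows were counted once, the class I sum was 425, 409.7, 453 and 409.6. Values of single copies are therefore uncertain where their rows overlap, and the sum is less so.

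A different picture of class I came from the loci that the authors' software assembled from the reads rather than from the named genes, a comparison chosen after the data were seen. Assembled loci lying for at least 0.5 of their length on class I rows summed to a TPM of 894, 463, 768 and 584, a log2 ratio of -0.95 with sevoflurane and -0.40 with desflurane. These loci numbered 23, 16, 22 and 20, covered 51.4, 42.4, 49.4 and 53.6 kb, and had a mean TPM of 38.8, 29.0, 34.9 and 29.2. The number of loci was thus lowest where the sum was lowest. For class II the assembled loci numbered 11, 11, 11 and 12 and summed to 245, 195, 212 and 317, in the same order of libraries as the named genes.

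Between the controls, 1 of 39 members above the TPM minimum was called. RT1-Cl had a TPM of 7.12, 5.65, 14.6 and 10.04 and was 2.05-fold higher in desflurane 0 h than in sevoflurane 0 h, where 1.96% of all genes were called higher and 0.799% lower. Both desflurane libraries lay above both sevoflurane libraries for this gene. Its row is only 279 bases long and lies inside that of RT1-M6-1, and with libraries scaled by the median of gene ratios it was no longer called. Between the 6 h livers, again 1 of 39 was called. RT1-T24-1 had a TPM of 1.59, 1.21, 2.66 and 2.55 and was 2.10-fold higher in desflurane 6 h than in sevoflurane 6 h, where 2.21% of all genes were called higher and 1.77% lower. It too was higher in both desflurane libraries. The class II genes came close to this limit at 6 h, RT1-Bb at 1.98-fold and RT1-Ba at 1.83-fold higher in desflurane, and all 8 class II genes and helpers were higher there, with a median log2 difference of 0.72 against -0.03 over all genes.

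The 19 members under a mean TPM of 1 were 14 class I genes, 4 class II genes and Ciita. RT1-DOa and RT1-DOb encode DO, a partner that holds back DM and is known from B cells. RT1-DOa had a TPM of 0.0661, 0.974, 0.131 and 0.802 and RT1-DOb 0.462, 0.372, 0.237 and 0.623. RT1-DOa was thus higher in both 6 h libraries, at levels too low to be called. RT1-Db2, a second DR-type beta gene, stayed between 0.0142 and 0.0970. RT1-M1-4, RT1-M1-5 and RT1-M4, of the non-classical RT1-M region, were listed at 0 in all 4 libraries.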

How the data were processed

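RNA-seq of total RNA from liver tissue, made with a stranded kit that depletes ribosomal RNA, gave 1 library for each of 4 groups, taken from the titles of the samples. Per the labels, the authors used HISAT2, SAMtools and StringTie with the build rn6. Sources used here give neither versions nor annotation. The deposited tables list named genes and loci assembled from the reads. The authors' TPM column was handled as a score, since its assembled loci alone fill a TPM column, with named genes added on top. The deposited FPKM equals TPM divided by 1.48 to 1.57 within a library. Coverage, a signal of mean depth per base as deposited, divided by FPKM gave the aligned bases. The tables hold no counts, so no count test was run.

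Rows of 1 symbol were summed, rows spanning 200 bases or fewer were left out. The shared change was tested with limma 3.58.1 (R 4.3.3, eBayes with trend, two-sided, Benjamini-Hochberg over 8024 genes averaging a TPM of at least 2) on log2(TPM + 1). Other steps used pandas 2.3.3 in Python 3.11.15. The rule for calling genes and the limma fit were tested on simulated data with 4-fold changes and independent noise. Those data held no effect of animal, agent or hour of harvest, so they cannot speak to these limits of the design. All 4 libraries differ in animal, and no group has a replicate. With the block, the residual is the difference between the changes with each agent, which mixes animal and agent. The limma fit moderates it with the spread of all genes, so the p-values lean on other genes and do not measure the spread between livers of 1 group. Members, gene lists, motifs and patterns of libraries were chosen with earlier results of these data known. The genes named were the members, called genes of the wider lists, and Irf1, Irf2, Ifng, Rfx5, Psmb5, Psmb6, Psmb7, Psme1, Psme2, Calr and Tapbpl, and some genes that met these rules are not reported here. Rfxap, Rfxank, the NF-Y subunits, Ifngr1, Ifngr2 and some cell markers were named after their values were seen. Alternatives varied the ratio, the TPM minimum, the scaling, the control, the rows used, the pseudocount and the libraries.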

Additional observations from a re-analysis of the deposited data

Results flagged for a closer look

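Opposite directions with the agents, each relative to its own control, marked the class II sum, with a log2 ratio of -0.36 with sevoflurane and 0.56 with desflurane. The same held for Cd74 (-0.37 and 0.50), RT1-Ba (-0.46 and 0.60), RT1-DMb (-0.27 and 0.88), RT1-Da (-0.42 and 0.47) and RT1-Db1 (-0.35 and 0.49). The difference between the agents was not tested, because each direction rests on 1 liver against 1. The 2 controls differed by -0.13 in the class II sum and by -0.51 in RT1-DMb.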

How the results depend on the processing

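The calls by ratio hang on few genes near the limits. With a ratio above 3, 0 members were called in any comparison. With a TPM above 5, RT1-S2 with sevoflurane and RT1-T24-1 between the 6 h livers were lost, leaving 0 called higher in each. With the control of the other agent, 4 members were lower with sevoflurane (Psmb9, Tap1, RT1-Cl and RT1-T24-1) and 1, Psmb9, with desflurane. With the median of ratios scaling, 1 member (RT1-DMb) was higher with desflurane, 0 were higher between the controls and 2 (RT1-Bb and RT1-T24-1) between the 6 h livers.

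The class I sum had a log2 ratio of -0.15 with sevoflurane and -0.05 with desflurane against the control of the other agent, and under the scaling of -0.05 with desflurane and -0.02 between the controls. Over assembled loci, added after the data were seen, its ratios were -0.95 with sevoflurane, -0.40 with desflurane, -0.22 between the controls and 0.33 between the 6 h livers, with 16 to 23 loci in a library. The class II sum had -0.23 with sevoflurane and 0.43 with desflurane against the other control, and under the scaling 0.68 with desflurane and -0.26 between the controls. It kept its directions with both agents under every alternative run.

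In the limma test the main counts were 376 genes higher, 316 lower and 3 members lower. Without a filter on low values 0 genes passed (1709 at an unadjusted p under 0.05), of which 0 were members (3 lower and 2 higher unadjusted). Under the median of ratios scaling, with the block kept, 365 genes were higher and 233 lower, with 2 of 37 members lower. Without the agent as a block 284 genes were higher and 204 lower, with 2 members lower, and Psmb8 did not pass (a log2 change of -0.61). With 3 libraries the block leaves no residual degree of freedom, so a library was left out in fits without it, which compare with these counts. They gave 113 to 312 genes higher, 61 to 274 lower and 0 to 3 members lower. Without sevoflurane 0 h 0 members passed, 4 being lower at an unadjusted p under 0.05, and without sevoflurane 6 h again 0, with 4 lower and 6 higher unadjusted. Over these alternatives the adjusted p ranged from 0.0082 to 0.56 for Psmb9, from 0.0096 to 0.43 for Tap1 and from 0.038 to 0.57 for Psmb8, and the direction of the 3 did not turn. A library left out leaves 1 side with a single liver, which was then assumed to vary like the others. Depth limits the values of genes near a TPM of 2 most in sevoflurane 0 h.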
